A study of Mus musculus with 56 samples.

Results

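The effect of irinotecan on gene expression in mouse neurons was followed in 5 microarrays, the 3 arrays titled for irinotecan at 10 µM and the 2 vehicle arrays whose title names irinotecan, out of 56 arrays in the series and 34 of the same array type. All 41345 probe sets of the array were examined. The cells were cortical neurons of C57BL6 mice, taken from embryos at embryonic day 13 to 15 and kept in culture for 7 days before treatment; no group carried a genetic change. Irinotecan or vehicle was then applied, and total RNA was taken 24 or 72 h later; the labels do not say which time belongs to irinotecan, nor what the vehicle was. The vehicle arrays also serve the topotecan washout experiment, as their title says. The description field of these 5 arrays speaks of a topotecan dose response, so the groups follow the titles and the treatment field. The series as a whole sets drugs that act on topoisomerases, short hairpin RNAs against them and a few other agents against their own controls. Nothing in the labels states that the arrays of a group came from separate cultures, so the p-values below measure only the spread between these arrays.

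Irinotecan is a camptothecin-class prodrug that carboxylesterases convert to SN-38, the form with high activity against topoisomerase I. Topoisomerase I nicks 1 DNA strand to release the twist that builds up ahead of and behind a moving RNA polymerase, and camptothecins hold the enzyme on the nicked DNA. Camptothecin-class drugs are known to slow RNA polymerase II as it elongates and, in neurons, to act on the imprinted Ube3a locus. Neurons do not divide, so topoisomerase I acts in them mainly during transcription.

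The deposited values are linear intensities, and log2 was taken of each. Every level below is such a log2 intensity, and every change is irinotecan minus vehicle in the fit of all probe sets with limma, given with its standard error (SE) and a p adjusted by Benjamini-Hochberg over all 41345 probe sets (n = 3 irinotecan and 2 vehicle arrays). A gene or probe set was called where that p was under 0.05. The mean intensity of the 5 arrays lay between 141.2 and 143.7. Pearson correlations over all probe sets were 0.9881 to 0.9899 within the groups and 0.9792 to 0.9823 between irinotecan and vehicle arrays.

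With irinotecan 1169 of 41345 probe sets were called (2.83%), 340 higher (0.822%) and 829 lower (2.01%), and 7754 had an unadjusted p under 0.05. Of 22180 genes with a probe set of their own, 13308 were not dim, that is, their mean over the 34 arrays reached 5.01. Among these, 224 genes were higher (1.68%) and 576 lower (4.33%), and all 800 had irinotecan and vehicle arrays that did not overlap. Groups that did not overlap were themselves common, at 36.3% of genes in the upward and 20.8% in the downward direction. Changes of at least 1 on the log2 scale were counted in 35 of the higher and 342 of the lower genes. The balance of the 2 directions depends on the fit. With the 13308 genes alone in the fit, 2198 were higher (16.5%) and 1552 lower (11.7%), and an intensity trend in the variance gave 1110 higher and 1075 lower genes. Leaving out an irinotecan array left 10 to 26 higher and 242 to 320 lower genes, and leaving out a vehicle array left 1 higher and 60 to 66 lower genes. Of the 95 genes and probe sets named by rule that were called, 27 to 33 lost the call without an irinotecan array and 66 to 68 without a vehicle array.

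The largest falls were in genes of neuronal signalling, adhesion and axon growth that span very long stretches of DNA. Erbb4, the neuregulin receptor found in cortical interneurons, stood at 4.92, 5.41 and 5.17 in the irinotecan arrays, against 9.14 and 9.01 in the vehicle arrays. It changed by -3.91 (SE 0.16, 15.0-fold lower, adjusted p = 0.00206). The lowest vehicle array was thus far above the highest irinotecan array, and the same holds for each gene of this paragraph. Nrg3, a neuregulin that binds that receptor, stood at 6.16, 6.01 and 5.87 in irinotecan arrays, against 9.51 and 9.43 in vehicle arrays, and changed by -3.46 (SE 0.12, adjusted p = 0.00186). Nkain2, a membrane protein that interacts with the sodium pump, had 6.81, 6.74 and 6.89 with irinotecan and 10.52 and 10.49 with vehicle, a change of -3.69 (SE 0.10). Il1rapl1, a synaptic adhesion receptor, had 4.78, 4.44 and 3.94 with irinotecan and 7.84 and 7.81 with vehicle, a change of -3.44 (SE 0.25). Irinotecan array 3 was the lowest for this gene. Kcnip4, an auxiliary subunit of potassium channels, fell by 3.42 on the log2 scale, and Csmd1, a membrane protein with complement-control domains, fell by 3.38. Grm7, a presynaptic glutamate receptor, changed by -3.11, Nrxn3, a presynaptic neurexin, by -3.05 and Dcc, a netrin receptor that guides axons, by -3.02. Ipw, a non-coding RNA of the Prader-Willi region, spans 59.7 kb, while the other 9 genes span 922 to 1640 kb, and it changed by -3.14. All 10 stayed past the threshold with any 1 irinotecan array left out, and 7 of the 10 with either vehicle array left out.

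The rises were smaller. Txnip, which binds and inhibits thioredoxin and limits glucose uptake, had 9.49, 8.96 and 8.96 in irinotecan arrays, against 7.27 and 6.79 in vehicle arrays. It changed by 2.11 (SE 0.23, 4.30-fold higher, adjusted p = 0.0131), and array 1 was the highest of its group with irinotecan and with vehicle. Thbs3, a thrombospondin of the extracellular matrix, had 7.59, 7.74 and 7.72 with irinotecan and 5.99 and 6.20 with vehicle, a change of 1.59 (SE 0.12). Slc17a6, the vesicular glutamate transporter VGLUT2, had 9.25, 9.08 and 9.17 with irinotecan and 7.87 and 7.64 with vehicle, a change of 1.41 (SE 0.12). Jun, a component of the transcription factor AP-1, had 9.97, 9.98 and 10.09 with irinotecan and 8.65 and 8.63 with vehicle, a change of 1.37 (SE 0.10, adjusted p = 0.00419). All irinotecan arrays were above both vehicle arrays for these genes. Hrk, a death-promoting member of the BCL2 family, had 7.43, 7.66 and 7.89 with irinotecan and 6.39 and 6.33 with vehicle, a change of 1.30 (SE 0.15). The other genes among the 10 largest rises were Prag1, a pseudokinase (1.49), Abca8a, an ABC transporter (1.37), Ubap1l (1.30), Olfm4, a secreted olfactomedin (1.30), and Rassf4, of the Ras-association family (1.26). Of these 10 genes 5 to 8 stayed past the threshold without 1 irinotecan array and 1 without 1 vehicle array.

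**Figure D1:**
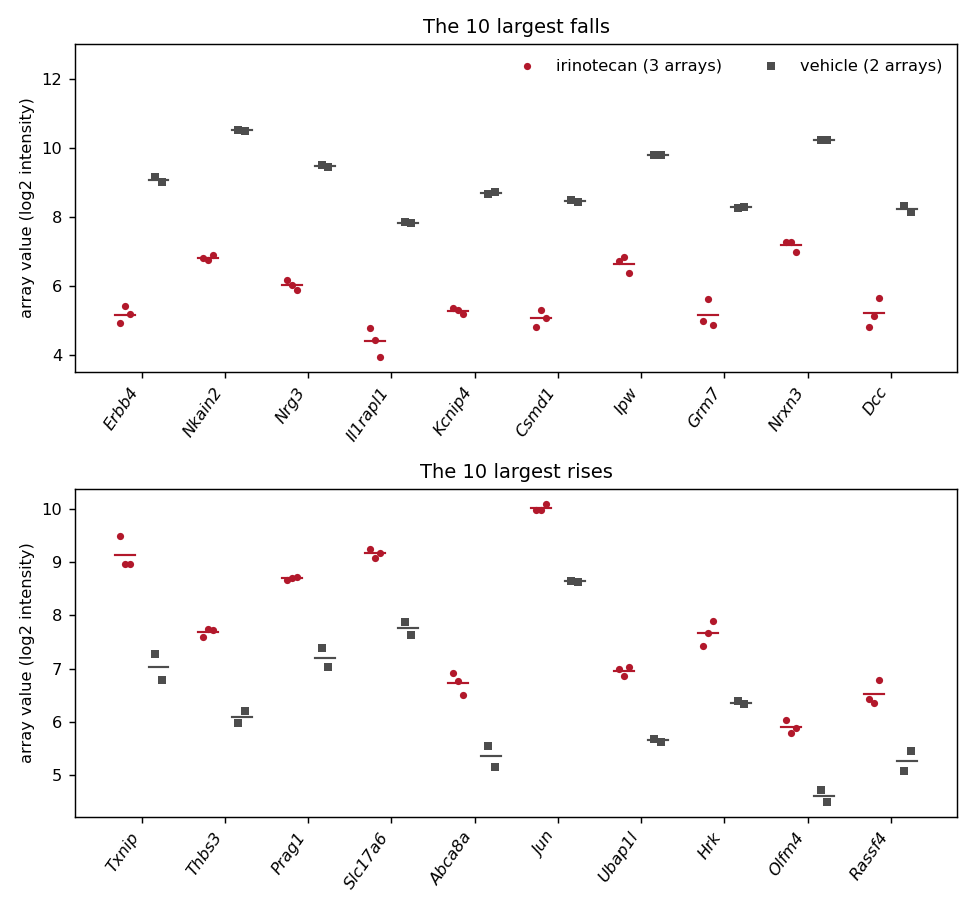
Log2 intensity in each array for the 10 genes with the largest falls (top) and the 10 with the largest rises (bottom), irinotecan as red circles (3 arrays) to the left of vehicle as grey squares (2 arrays), with the group mean as a line. In Erbb4 the irinotecan arrays lie at 4.92 to 5.41 and the vehicle arrays at 9.01 and 9.14; no gene shown has groups that overlap.

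Falls were most frequent among long genes. Of 839 genes over 200 kb that were not dim, 407 were lower (48.5%) and 0 higher, with a median change of -0.66. Of 1147 genes of 100 to 200 kb, 57 were lower (4.97%) and 13 higher, with a median of -0.12. The 3 shorter classes had medians above 0: 0.08 for 3675 genes of 30 to 100 kb (57 higher, 23 lower), 0.13 for 4017 genes of 10 to 30 kb (78 higher, 22 lower) and 0.09 for 3557 genes up to 10 kb (75 higher, 63 lower). The median over all 13308 genes was 0.07. Of the 63 lower genes in the shortest class 27 were protein-coding, among 2917 such genes, and 50 protein-coding genes of that class were higher. Leaving out an irinotecan array left 200 to 256 lower genes over 200 kb, and leaving out a vehicle array left 54 to 59. Fitted over the 13308 genes alone, 643 of the genes over 200 kb were lower and 8 higher. With an intensity trend the counts were 556 lower and 3 higher, so the absence of higher genes in that class depends on the fit. It held with other scalings and robust eBayes, while the mean of all probe sets of a gene gave 3 higher.

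Within the long genes the size of the fall grew with length. The median change was -0.54 in 640 genes of 200 to 500 kb, -1.23 in 148 genes of 500 to 1000 kb and -2.04 in 51 genes over 1000 kb. The shares called lower in these classes were 39.1%, 74.3% and 92.2%. Over the 13235 genes with an annotated length, the change and length had a Spearman correlation of -0.26, and the change and log10 length a Pearson correlation of -0.31; genes are not independent replicates, and all share the same 5 arrays. Each array was also given a long-gene score, in which the mean level of genes up to 100 kb was subtracted from the mean level of longer genes (log2). The score was 0.068, 0.09 and 0.06 in the irinotecan arrays, against 0.584 and 0.572 in the vehicle arrays. The difference of the means was -0.506, with 0.073 ± 0.016 in irinotecan and 0.578 ± 0.009 in vehicle arrays (SD, n = 3 and 2; exact permutation test, two-sided, p = 0.1, the smallest p that 3 against 2 arrays can give).

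**Figure D2:**
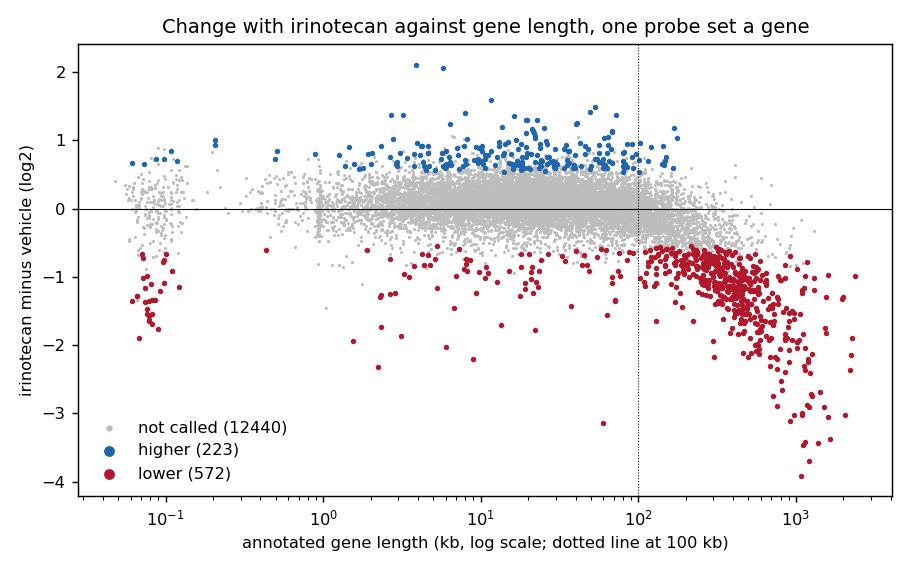
Change with irinotecan (irinotecan minus vehicle, log2) against annotated gene length (kb, log scale) for the 13235 genes that were not dim and had a length. Genes called higher (223, blue) and lower (572, red) stand out from those not called (grey); right of the dotted line at 100 kb the cloud bends down, and the group of lower genes near 0.1 kb holds microRNA genes.

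Of 199 genes over 500 kb, 157 were called lower and 42 were not. Most of the 42 also had a negative change, 37 against 5, and 187 of the 199 were lower in the fit over genes that were not dim. The genes of the 42 that are named next were chosen after their values were seen. Nrg1, a neuregulin of 1080 kb, had 7.87, 7.53 and 7.88 in irinotecan arrays, against 7.89 and 7.95 in vehicle arrays, a change of -0.16 (SE 0.14, adjusted p = 0.615). Mast4, a kinase gene of 603 kb, had 7.44, 7.66 and 7.85 with irinotecan and 7.19 and 7.21 with vehicle, a change of 0.45 (SE 0.14, adjusted p = 0.184, but 0.0325 in the fit over genes that were not dim). Pde4b and Pde4d, phosphodiesterases that break down cyclic AMP, had changes of 0.18 (SE 0.13) and -0.33 (SE 0.19). Irinotecan values overlapped those of vehicle for Pde4b and Pde4d, lay just below them for Nrg1 and above them for Mast4. The 13 higher genes over 100 kb were led by Dgkk, a diacylglycerol kinase (169 kb, 1.18, SE 0.18), Rapgef6, an activator of Rap proteins (176 kb, 1.03, SE 0.11), and Rab30, a small GTPase (103 kb, 0.96, SE 0.10). The largest falls between 100 and 200 kb were in Fam163a (-1.65), the zinc-finger gene Hivep2 (-1.44) and the circadian transcription factor Npas2 (-1.37).

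Some short genes fell. Itpka, a neuronal kinase of inositol trisphosphate that spans 8.92 kb, had 4.49, 5.10 and 4.48 in irinotecan arrays, against 6.90 and 6.87 in vehicle arrays. It changed by -2.20 (SE 0.21, 4.59-fold lower, adjusted p = 0.00976). Lcn2, a secreted lipocalin that binds iron carriers, had 5.40, 5.22 and 5.01 with irinotecan and 7.12 and 7.04 with vehicle, a change of -1.87 (SE 0.14). Slc30a3, the zinc transporter of synaptic vesicles, had 6.29, 6.15 and 6.06 with irinotecan and 7.64 and 8.25 with vehicle, a change of -1.78 (SE 0.20). The groups were apart for all 3 genes, and the vehicle arrays differed most from each other for Slc30a3. Crhbp, which binds corticotropin-releasing hormone (-1.70), Rasgrp1, an activator of Ras (-1.56), Hapln1, which links hyaluronan to proteoglycans (-1.36), and Slc38a3, a glutamine transporter (-1.28), also fell. Below 30 kb the largest rises beside Txnip, Jun, Thbs3, Ubap1l and Hrk included Gpc2, a neuronal heparan sulfate proteoglycan (6.37 kb, 1.24, SE 0.11).

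Genes of synaptic and axonal adhesion, which join neurons to each other and organise the synapse, held many lower members. Of 62 that were not dim, 31 were lower and 2 higher, with a median change of -0.58, beside 4.33% lower, 1.68% higher and a median of 0.07 for all genes. The 31 lower genes were all among the 41 members over 100 kb (75.6%), whose median was -1.53. Of all 1986 genes over 100 kb 23.4% were lower, with a median of -0.27. That share rose with length, from 4.97% at 100 to 200 kb to 92.2% over 1000 kb. Neither this list nor those below was matched for length or tested against other long genes. In the adhesion list the 21 shorter members had a median of 0.13. Cntn5, a contactin, changed by -2.74 (SE 0.23), Lingo2, a leucine-rich repeat protein, by -2.71 (SE 0.15), Nlgn1, a postsynaptic neuroligin, by -2.24 (SE 0.13) and Cntnap2, of the neurexin superfamily, by -2.14 (SE 0.16). Nlgn1 had 6.66, 6.99 and 6.93 in irinotecan arrays and 9.15 and 9.06 in vehicle arrays. Both rises were in short genes, the leucine-rich repeat synapse organiser Lrrtm2 (6.02 kb, 0.66, SE 0.09) and the axonal contactin Cntn2 (33.8 kb, 0.59, SE 0.09). Leaving out an irinotecan array left 22 to 25 lower members and leaving out a vehicle array 10 to 11.

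Receptors for the main fast transmitters also held lower genes. Of 20 glutamate receptor genes 12 were lower and 0 higher, and the median of the 20 was -1.06. All 12 were among the 16 members over 100 kb (75%, beside 23.4% of all genes of that length). Grid1, a delta receptor, fell by 2.21 on the log2 scale, Grik2, a kainate receptor subunit, by 1.90 and Grin2a, an NMDA receptor subunit, by 1.84. Grin2a had 5.82, 6.29 and 6.14 in irinotecan arrays, against 7.94 and 7.90 in vehicle arrays, which do not overlap. Of 11 GABA receptor genes 3 were lower and 1 higher, beside 4.33% and 1.68% of all genes. The 3 were among the 7 members over 100 kb, and 0 of 4 shorter members were lower. The lower ones were Gabrg3 (-1.93, SE 0.11), Gabrb1 (-1.43, SE 0.11) and the GABA-B subunit Gabbr2 (-1.11, SE 0.10). Gabrg1, a gene of 91.6 kb, had 8.65, 8.47 and 8.62 with irinotecan and 7.90 and 7.73 with vehicle, a rise of 0.76 (SE 0.11, adjusted p = 0.0311). Chrm3, a muscarinic receptor of 486 kb (-1.54, SE 0.14), and Lynx1, a modulator of nicotinic receptors of 5.12 kb (-0.74, SE 0.12), were the 2 lower genes among 12 cholinergic genes. They were 1 of 3 members over 100 kb and 1 of 9 shorter members. Of all genes of those lengths 23.4% and 0.96% were lower. Irinotecan itself is known to inhibit acetylcholinesterase, whose gene Ache had 6.70, 6.56 and 6.50 with irinotecan and 6.70 and 6.80 with vehicle (-0.16, adjusted p = 0.488). Without an irinotecan array 8 to 10 glutamate receptor genes were lower, and without a vehicle array 2 to 3. Of the GABA receptor genes 3 were lower without an irinotecan array and 1 without a vehicle array, and the call of Gabrg1 was lost with any 1 array left out. Of the cholinergic genes at most 1 was called with an array left out.

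Channels and the release machinery also held many lower genes. Of 40 voltage-gated channel genes 19 were lower and 0 higher, with a median of -0.62. They included Kcnma1, the large-conductance potassium channel (-2.75, SE 0.11), Cacna2d3, an auxiliary calcium channel subunit (-2.66, SE 0.12), and Kcnq5, which carries M-type potassium current (-1.99, SE 0.10). Of 38 genes of vesicle release 12 were lower and 0 higher, with a median of -0.30. Syt1, the calcium sensor of fast release, had 9.85, 9.84 and 9.60 in irinotecan arrays, against 11.35 and 11.40 in vehicle arrays, a change of -1.61 (SE 0.12). Erc2, of the presynaptic active zone, changed by -2.39, Cadps, which primes dense-core vesicles, by -1.61 and Rims1, an active-zone scaffold, by -1.40. All 19 channel genes and all 12 release genes that fell were over 100 kb, 65.5% and 60% of the long members, beside 23.4% of all genes of that length. None of the 11 shorter channel genes and 18 shorter release genes was called. Leaving out an irinotecan array left 14 to 18 lower channel genes and 7 to 8 lower release genes; leaving out a vehicle array left 7 and 1 to 2.

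On the postsynaptic side 11 of 29 scaffold and signalling genes were lower and 0 higher. Dlgap1, a scaffold of glutamatergic synapses, changed by -1.84 (SE 0.10), Kalrn, a signalling protein of dendritic spines, by -1.80 (SE 0.12), Gphn, the scaffold of inhibitory synapses, by -1.79 (SE 0.11), and Cnksr2 by -1.64 (SE 0.09). Camk2a was the lower gene up to 100 kb in this list, at 62.8 kb. It had 9.60, 9.56 and 9.48 with irinotecan and 10.17 and 10.14 with vehicle, a change of -0.61 (SE 0.10). Axon guidance genes were lower in 15 of 36 cases, among them Epha6, an ephrin receptor (-3.02), Slit3, a Robo ligand (-2.06), and Unc5d, a netrin receptor (-2.0). Cadherins and protocadherins were lower in 10 of 30 cases, among them Cdh13 (-2.88), Cdh12 (-2.04), Pcdh9 (-1.90) and Fat3 (-1.76). None of the genes of these 3 lists was higher. Among members over 100 kb, 10 of 19 postsynaptic genes, 15 of 31 guidance genes and 10 of 22 cadherin genes were lower, beside 23.4% of all genes of that length. Without a vehicle array 2 postsynaptic genes, 4 guidance genes and 1 cadherin gene were lower, and without an irinotecan array 8 to 10, 9 to 10 and 5 to 7.

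Autism candidate genes, the theme of the series, were taken as a list compiled from general knowledge. Of 87 that were not dim, 37 were lower and 0 higher, and the median was -0.49. All 37 were among the 63 members over 100 kb, which had a median of -1.13; the 24 shorter members had a median of 0.09 and 0 calls. Dpp10, a potassium channel partner of 1510 kb, had 5.88, 6.38 and 6.04 in irinotecan arrays, against 9.08 and 8.94 in vehicle arrays, a change of -2.91 (SE 0.17). Auts2, a transcription regulator of 1110 kb, had 7.97, 7.92 and 7.59 with irinotecan and 8.70 and 8.55 with vehicle, which do not overlap, but its change of -0.80 (SE 0.15) did not pass (adjusted p = 0.0613). Members over 100 kb were called lower in 58.7% of cases, beside 23.4% for all 1986 genes of that length. Leaving out an irinotecan array left 30 to 33 lower members and leaving out a vehicle array 14.

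**Figure D3:**
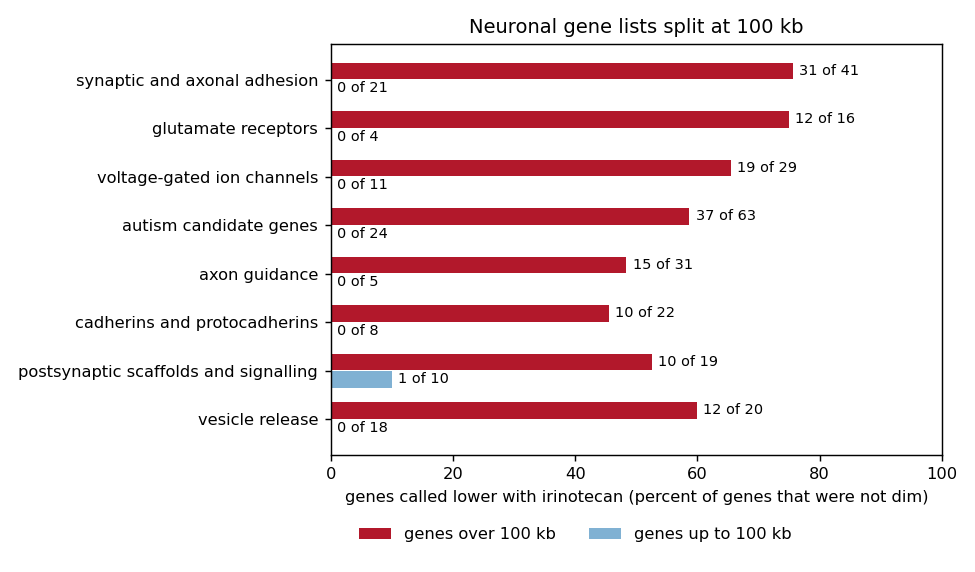
Share of genes called lower with irinotecan (percent of list members that were not dim) in 8 neuronal gene lists, split at a gene length of 100 kb, with the counts beside the bars. In the adhesion list 31 of 41 long members and 0 of 21 shorter members were lower; Camk2a was the 1 lower gene of 10 shorter postsynaptic genes.

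Splicing regulators gave 5 lower genes of 28, with a median of -0.02. The 5 were among 15 members over 100 kb (33.3%), beside 23.4% for all genes of that length, and 2 were lower without an irinotecan array and 1 without a vehicle array. Rbfox1, a neuronal splicing factor of 1530 kb, had 9.09, 9.16 and 9.02 in irinotecan arrays, against 10.87 and 10.81 in vehicle arrays, a change of -1.75 (SE 0.10). Rbfox3, the neuronal marker NeuN, changed by -1.20 (SE 0.10), Khdrbs2 by -0.84 and Celf2 by -0.83. The groups did not overlap for any of these 4 genes.

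Genes that respond to neuronal activity moved in both directions and, unlike the groups above, are short: 38 of the 39 that were not dim were up to 100 kb. Jun and Dusp1, a phosphatase of MAP kinases, rose, and 6 fell. Of all genes up to 100 kb 1.87% were higher and 0.96% lower. Npas4, an activity-dependent transcription factor, had 6.00, 5.93 and 5.64 in irinotecan arrays, against 7.02 and 7.06 in vehicle arrays (-1.18, SE 0.14, adjusted p = 0.016). Egr3, a zinc-finger factor, had 6.98, 7.15 and 6.95 with irinotecan and 8.20 and 8.19 with vehicle (-1.17, SE 0.11). Nr4a1, an orphan nuclear receptor, had 6.16, 6.24 and 6.17 with irinotecan and 7.17 and 7.26 with vehicle (-1.03, SE 0.09). Each of the 3 was lower in every irinotecan array than in both vehicle arrays. Arc, which acts at synapses, changed by -1.0 (SE 0.12), Egr1 by -0.84 (SE 0.13) and Vgf, a neuropeptide precursor, by -0.81 (SE 0.09). Fos had 4.84, 5.43 and 5.08 with irinotecan and 6.05 and 5.84 with vehicle, a change of -0.83 that did not pass (SE 0.19, adjusted p = 0.102, but 0.012 in the fit over genes that were not dim). Without an irinotecan array 2 members were lower and 1 higher, and without a vehicle array none was called.

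The control of RNA polymerase II elongation was represented by 34 genes, of which 2 were higher and 0 lower, with a median of 0.17, beside 1.68% higher and a median of 0.07 over all genes. Hexim1, the inhibitor of the elongation kinase P-TEFb, had 7.76, 7.92 and 8.05 in irinotecan arrays, against 7.14 and 7.21 in vehicle arrays, a change of 0.74 (SE 0.12, adjusted p = 0.0428). Polr2a, the largest subunit of RNA polymerase II, had 8.88, 8.94 and 9.02 with irinotecan and 8.26 and 8.24 with vehicle, a change of 0.70 (SE 0.10, adjusted p = 0.0268). The groups did not overlap in either gene. In the fit over genes that were not dim 10 members were higher, beside 16.5% of all genes. Among 7 histone genes 2 were higher, H2aw (0.84, SE 0.10) and H2bc21 (0.75, SE 0.11). None of these 4 genes was called with any 1 array left out.

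Topoisomerases and the repair of their DNA breaks showed no call in 19 genes, with a median of 0.12. In the fit over genes that were not dim 2 were higher, beside 16.5% of all genes. Top1, the target of the drug, had 8.94, 9.04 and 9.02 in irinotecan arrays, against 8.84 and 8.77 in vehicle arrays (0.19, SE 0.09, adjusted p = 0.352). Top2b, the topoisomerase II of neurons, had 8.46, 8.58 and 8.59 with irinotecan and 8.63 and 8.53 with vehicle (-0.04, SE 0.10). Top2a, the form of dividing cells, had 5.16, 5.42 and 5.59 with irinotecan and 5.13 and 5.48 with vehicle (0.09, SE 0.18). Irinotecan values were above vehicle for Top1 and overlapped it for both topoisomerase II genes. Tdp1, which removes trapped topoisomerase I from DNA, had a change of 0.17 (SE 0.09, adjusted p = 0.415). Of 19 genes for the conversion and export of irinotecan on the array 8 were not dim and 0 were called. Ces2g, a carboxylesterase gene, had 4.51, 5.01 and 4.60 with irinotecan and 4.47 and 4.26 with vehicle (0.35, SE 0.18, adjusted p = 0.374).

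Targets of p53, the transcription factor that answers DNA damage, gave 0 calls in 39 genes, with a median of 0.21. When only genes that were not dim entered the fit, 12 were higher and 1 lower. That fit called 16.5% of all 13308 genes higher and 11.7% lower. Cdkn1a, which blocks the cell cycle, had 10.72, 10.71 and 10.70 in irinotecan arrays, against 10.45 and 10.41 in vehicle arrays (0.28, SE 0.09, adjusted p = 0.185, and 0.0246 in the fit over those genes). The irinotecan arrays were all higher, by little. Mdm2, which degrades p53, had 8.13, 8.14 and 8.32 with irinotecan and 7.87 and 8.10 with vehicle (0.21, SE 0.12, adjusted p = 0.426). Beside Hrk no other gene was called among 21 of the BCL2 family and cell death, with a median of 0.15. The call of Hrk was lost in every fit that left out an array except that without irinotecan replicate 1. Other stress lists had few calls, all of them lost with any 1 array left out: Gpx1, a glutathione peroxidase (0.79, SE 0.10), in 25 antioxidant genes, the small heat shock protein Cryab (0.73, SE 0.09) in 17 heat shock genes, Irf9 (0.61, SE 0.09) in 26 interferon-stimulated genes, and none in 32 genes of the responses to amino acid stress and misfolded protein. In the fit over genes that were not dim 6 antioxidant, 3 heat shock and 5 interferon-stimulated genes were higher. The share of all genes higher in that fit was 16.5%, and no list was tested against it. No member was called among 52 cytosolic ribosomal proteins, with a median of 0.13, 68 respiratory chain genes, 25 genes of sterol and fatty acid synthesis or 27 of glycolysis and hypoxia. In the fit over genes that were not dim, 11 ribosomal protein genes were higher, beside the same 16.5% of all genes.

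Ube3a, the ubiquitin ligase that is imprinted in neurons and lost in Angelman syndrome, has 2 probe sets under its name on this array. They did not move together. Probe set 17478769 stood at 9.49, 9.44 and 9.71 in irinotecan arrays, against 9.17 and 8.93 in vehicle arrays, a change of 0.49 (SE 0.14, adjusted p = 0.139, but 0.0187 in the fit over genes that were not dim and 0.0381 with an intensity trend). Probe set 17491495 stood at 4.69, 4.75 and 4.36 with irinotecan and at 10.03 and 10.08 with vehicle, a change of -5.45 (SE 0.14, 43.8-fold lower, adjusted p = 0.00117). It was the deepest fall of all 41345 probe sets. Irinotecan arrays were all above vehicle arrays in the first probe set and all below them in the second. The strand each probe set reads is not given in the sources used here. RNA from the antisense transcript of this locus cannot be told apart from that of Ube3a by name alone. By number, 17491495 stands between the probe sets of Gabra5 (17491480) and Ipw (17491529), and 17478769 between those of Atp10a (17478745) and Ndn (17478789). Which RNA 17491495 reads was not tested, so its fall is not given as a fall of Ube3a. The mean of both probe sets was -2.48 under the name Ube3a, and may mix different transcripts. Among 1082 genes with more than 1 probe set, none had probe sets called in opposite directions.

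The neighbours of Ube3a on chromosome 7 differed among themselves. Snhg14, the long non-coding host transcript of the locus, had 9.60, 9.77 and 9.81 in irinotecan arrays, against 10.46 and 10.56 in vehicle arrays, a change of -0.78 (SE 0.11, adjusted p = 0.0287). Ipw had 6.72, 6.84 and 6.37 with irinotecan and 9.78 and 9.79 with vehicle, a change of -3.14 (SE 0.16, 8.83-fold lower, adjusted p = 0.00248). The groups did not overlap in either transcript. Gabrg3, a GABA receptor gene of 671 kb, changed by -1.93 (SE 0.11) and Herc2, a ubiquitin ligase gene of 182 kb, by -0.62 (SE 0.10). Gabra5 had a change of -0.42 (SE 0.10, adjusted p = 0.0956), and the paternally expressed Ndn and Mkrn3 had 0.01 (SE 0.09) and 0.28 (SE 0.10), none past the threshold. Of the 10 listed genes that were not dim, 4 were lower, beside 4.33% of all genes. Of the 6 listed genes over 100 kb 3 were lower, beside 23.4% of all genes of that length. In each fit that left out an irinotecan array 2 listed genes were lower.

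**Figure D4:**
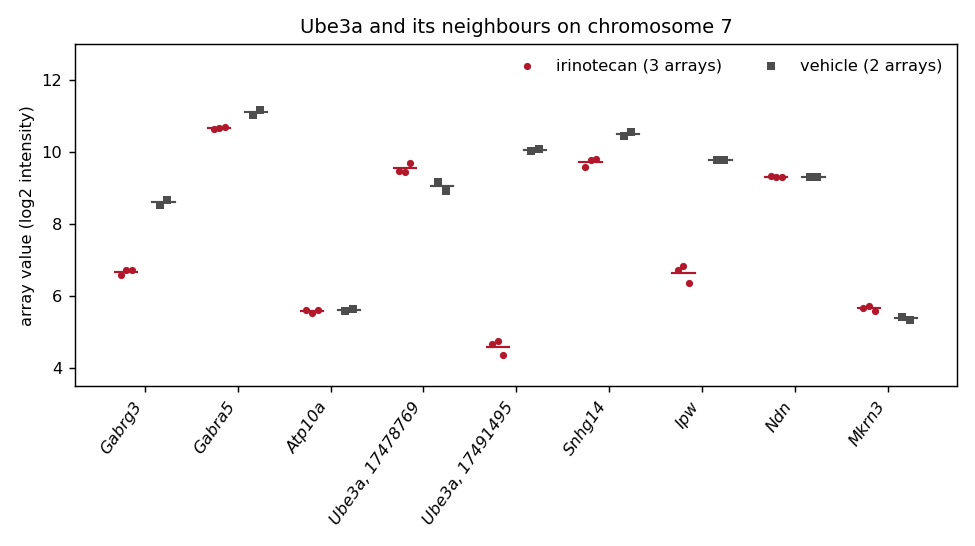
Log2 intensity per array of Ube3a (both probe sets, by their number) and neighbours in their order on chromosome 7, irinotecan as red circles (3 arrays) to the left of vehicle as grey squares (2 arrays), with the group mean as a line. Probe set 17491495 lies at 4.36 to 4.75 with irinotecan and at 10.03 and 10.08 with vehicle, while 17478769 lies at 9.44 to 9.71 with irinotecan and at 8.93 and 9.17 with vehicle.

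MicroRNA genes were examined after their values were seen, because they make up much of the falls among the shortest genes. Of 172 microRNA genes that were not dim, 28 were lower (16.3%) and 4 higher. The falls came mostly from a single imprinted cluster, the Dlk1 to Dio3 region of chromosome 12, where long non-coding transcripts expressed from the maternal chromosome carry snoRNAs and many microRNA hairpins. There 23 of 32 microRNA genes were lower (71.9%) and 0 higher, with a median change of -1.28. Of 140 microRNA genes elsewhere 5 were lower (3.57%) and 4 higher, with a median of 0. Over all genes 4.33% were lower and 1.68% higher. The mature sequences of some of the 23 lower genes are shown to give the products that RefSeq lists under these gene names (build GRCm38.p6, hairpins within chr12:109611500-109743236, + strand). The capitals mark the seed, bases 2 to 8, through which a microRNA pairs with its targets. The first 3 belong to genes with the deepest falls, and the next 4 form the pairs that share a seed among the 23 genes.
mmu-miR-377-3p: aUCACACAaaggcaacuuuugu
mmu-miR-541-5p: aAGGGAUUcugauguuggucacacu
mmu-miR-376b-3p: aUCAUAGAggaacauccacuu
mmu-miR-379-5p: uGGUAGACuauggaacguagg
mmu-miR-1193-5p: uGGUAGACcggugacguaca
mmu-miR-453: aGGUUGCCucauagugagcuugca
mmu-miR-496a-5p: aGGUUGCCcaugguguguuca

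The change deepened along the Dlk1 to Dio3 region. Mir377 had 5.24, 5.21 and 5.21 in irinotecan arrays, against 7.11 and 7.13 in vehicle arrays, a change of -1.90 (SE 0.09, adjusted p = 0.00206). Mir541 had 4.90, 4.30 and 4.57 with irinotecan and 6.32 and 6.38 with vehicle (-1.76, SE 0.19), and Mir376b had 5.13, 5.66 and 5.46 with irinotecan and 7.07 and 7.15 with vehicle (-1.69, SE 0.17). All irinotecan arrays were below both vehicle arrays in these 3 genes, which lie downstream of Rian. Of the genes with a shared seed, Mir379 changed by -1.28, Mir1193 by -1.15, Mir453 by -1.54 and Mir496a by -1.57. The 6 microRNA genes upstream of Rian had a median of -0.42 and 0 calls, the 2 within Rian had a median of -0.71 and 1 call, and the 24 downstream of Rian had a median of -1.34 with 22 lower. Change and order along the region had a Spearman correlation of -0.78 over 32 microRNA genes, which share the arrays and may share primary transcripts. Rian itself had 9.81, 9.84 and 9.82 with irinotecan and 10.34 and 10.49 with vehicle (-0.59, SE 0.10, adjusted p = 0.0437). Meg3, the non-coding RNA at the upstream end, had 4.97, 4.78 and 4.85 with irinotecan and 5.44 and 5.49 with vehicle (-0.60, SE 0.10), just short of the threshold (adjusted p = 0.0503), in a probe set near the dim limit. Dlk1, the protein-coding gene at that end, had a change of -0.18 (SE 0.19). The probe set of Meg3 (17283955) is numbered apart from those of Dlk1 (17278647) and Rian (17278715), and the strand it reads was not tested. Whether a probe set reads the mature microRNA, the hairpin or the primary transcript was not tested. Without an irinotecan array 14 to 19 microRNA genes of the region were lower, and without either vehicle array 1.

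**Figure D5:**
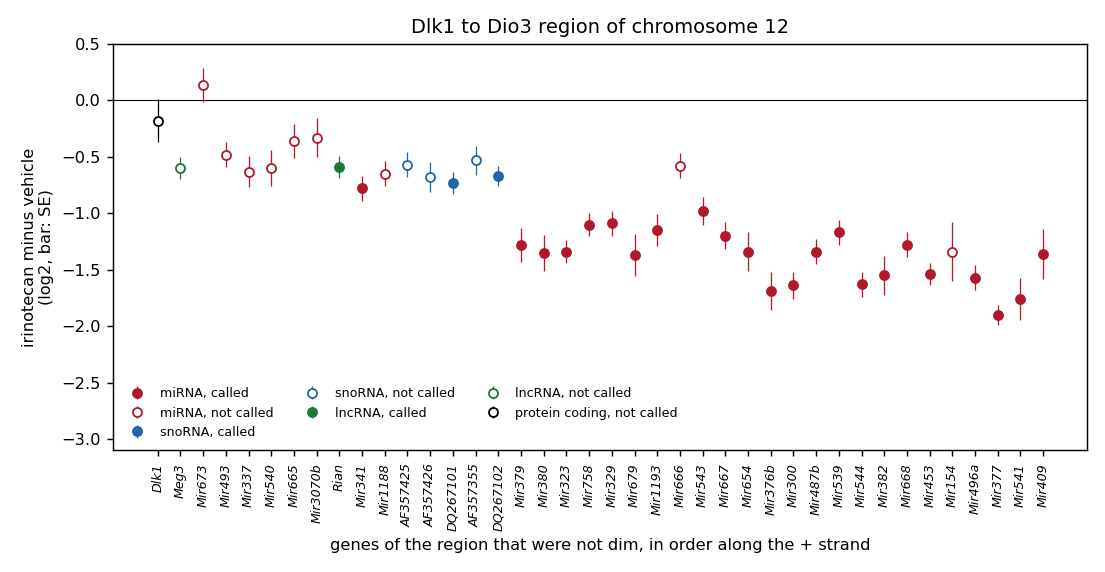
Change with irinotecan (irinotecan minus vehicle, log2, bar: SE) of the genes of the Dlk1 to Dio3 region that were not dim, in order along the + strand, by kind of gene; filled circles were called. The microRNA genes downstream of Rian lie between -1.90 and -0.58, those upstream between -0.63 and 0.14.

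Markers of cortical neurons and of astrocytes were present, and a few changed. In these whole-culture samples fewer cells of a type and less RNA per cell cannot be told apart, which bears on every gene above that marks a cell type, Erbb4 among them. Of 18 excitatory neuron markers 1 was higher, Slc17a6, and 2 lower, Foxp2 (-1.06) and Camk2a. The linear intensity summed over every marker on the array, dim ones included, was 5000 to 5020 in irinotecan arrays and 5250 to 5340 in vehicle arrays. Of 16 inhibitory interneuron markers 5 were lower and 0 higher, beside 4.33% lower and 1.68% higher over all genes. Changes ran from -3.91 to 0.78, and 13 of the 16 were below 0. The 12 markers up to 100 kb had a median of -0.35. In the fit over genes that were not dim 2 interneuron markers were higher and 11 lower, beside 16.5% and 11.7% of all genes. That fit gave 3 higher and 7 lower of the 18 excitatory markers, and 1 higher and 7 lower of 21 astrocyte markers. Nxph1 (-2.18) and Reln (-2.12), like Erbb4, are over 200 kb, but the neuropeptide Npy (6.80 kb) and the vesicular GABA transporter Slc32a1 (8.49 kb) are short. Npy had 7.09, 7.06 and 6.70 with irinotecan and 8.41 and 8.40 with vehicle (-1.46, SE 0.15), and Slc32a1 had 6.29, 6.30 and 6.16 with irinotecan and 7.00 and 7.02 with vehicle (-0.76, SE 0.10). The summed intensity of interneuron markers was 2960 to 3400 in irinotecan arrays and 5490 to 5810 in vehicle arrays. That sum includes Erbb4, Nxph1 and Reln, and the 4 markers over 100 kb had a median change of -2.15. Their part in the lower sum was not tested. Gad1, which makes GABA, had 6.49, 6.70 and 6.66 with irinotecan and 7.17 and 7.19 with vehicle (-0.57, SE 0.11, adjusted p = 0.0634). The part of cell composition in these falls was not tested. Without an irinotecan array 4 interneuron markers were lower and without a vehicle array 3, while at most 1 excitatory marker was lower and Slc17a6 lost its call without a vehicle array.

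Of 21 astrocyte markers 3 were lower, the bicarbonate transporter Slc4a4 (-1.49), the water channel Aqp4 (-1.24) and the glutamate transporter Slc1a2 (-0.68). Over all genes 4.33% were lower and 1.68% higher, which bears on each list of this paragraph. Of 4 astrocyte markers over 100 kb 2 were lower, beside 23.4% of all genes of that length. The summed intensity of astrocyte markers was 9980 to 10500 with irinotecan and 10300 to 11000 with vehicle. Of 8 endothelial and mural markers Acta2, smooth muscle actin, was lower (-0.92, SE 0.10), with sums of 807 to 888 in irinotecan arrays and 1160 to 1240 in vehicle arrays. Of 9 Cajal-Retzius and subplate markers Cxcr4 was higher (0.78, SE 0.13, adjusted p = 0.0484, and 0.0502 to 0.052 under other scalings or robust eBayes), with sums of 873 to 888 with irinotecan and 1010 to 1100 with vehicle. No call was made in 30 genes of proliferating cells and progenitors (sums of 6260 to 6850 with irinotecan and 4950 to 5540 with vehicle), 17 fibroblast and meningeal (2800 to 3060 and 2860 to 3360), 11 microglia (552 to 593 and 505 to 507) or 8 oligodendrocyte lineage genes (535 to 545 and 567 to 628). With 1 array left out at most 1 astrocyte marker was called, and neither Acta2 nor Cxcr4 was.

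Topotecan, a water-soluble camptothecin that needs no conversion, was measured at 1 µM on 6 arrays of the same type with 6 vehicle arrays of its own. The doses differ and the mean intensities of the topotecan set were 177.5 to 183.3, so the values stand side by side without a comparison. Erbb4 changed by -3.91 (SE 0.16) with irinotecan at 10 µM and by -2.74 (SE 0.14) with topotecan at 1 µM, each against its own vehicle. Txnip changed by 2.11 (SE 0.23) with irinotecan and 1.06 (SE 0.15) with topotecan, and Jun by 1.37 (SE 0.10) and 1.07 (SE 0.09). The second Ube3a probe set changed by -5.45 (SE 0.14) with irinotecan and -4.73 (SE 0.15) with topotecan. Median changes of genes over 200 kb were -0.66 and -0.68, and those of the 24 microRNA genes downstream of Rian -1.34 and -1.53. Top2a had changes of 0.09 (SE 0.18) and -0.66 (SE 0.11), Slc38a3 of -1.28 (SE 0.12) and -2.33 (SE 0.07), and Aqp4 of -1.24 (SE 0.14) and -2.74 (SE 0.11).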

How the data were processed

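RNA of 5 samples was measured on Affymetrix MoGene 2.1 ST arrays. The authors made the deposited intensity values, 1 per probe set, with RMA in Affymetrix Expression Console, per the submitters' processing notes; versions, genome build and the arrays normalized together are not given in the sources used here. The deposited intensities are linear, from the values themselves, so log2 was taken. Probe sets were named through the platform annotation, 23521 with 1 gene symbol, 1814 with several and 16010 with none, and symbols and gene lengths came from RefSeq (99.5% of genes that were not dim had a length). For a gene the brightest of its probe sets over the 34 arrays was used, and genes under the 40th percentile (5.01; 4.59 over the 5 arrays alone) were called dim.

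Changes were fitted with limma 3.58.1 in R 4.3.3 (lmFit and eBayes), tested on simulated data first. The text names the 10 largest rises and falls, up to 4 called members of each list, the 3 largest of each length class and some fixed genes; predicted genes (40 higher, 45 lower) are counted only. Lists, members and rules were chosen with earlier results of these data known. Alternatives were other scalings, variance models, filters, probe set rules, left-out arrays and a replicate block. Array number limits the precision. Deviations of arrays with the same replicate number correlated at -0.04; with 2 vehicle arrays this check is weak, and no label says that the numbers pair arrays.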

Additional observations from a re-analysis of the deposited data

How the results depend on the processing

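Only 3 irinotecan and 2 vehicle arrays bear on each value, and the exact permutation test of the score cannot pass 0.05. Scaling changed little: quantile normalization anew gave 350 probe sets higher and 903 lower, against 340 and 829 as reported, and centring each array on its median gave 320 and 874. Robust eBayes gave 317 and 811. The median change of genes was 0.03 to 0.07 under all settings. An intensity trend gave 1533 probe sets higher and 1504 lower, 1110 genes higher and 1075 lower, and 3 genes over 200 kb higher; the cause was not tested. The fit over genes that were not dim gave 2198 genes higher and 1552 lower, with 643 lower and 8 higher over 200 kb; it changes both the variance prior and the number of features adjusted over, and the cause was not tested. The mean of all probe sets of a gene gave 956 higher and 1020 lower, with 3 higher over 200 kb. A change of at least 1 left 35 higher and 342 lower, and 272 lower over 200 kb; no filter gave 237 and 600. Leaving out 1 array gave 2 to 47 probe sets higher and 83 to 433 lower, 1 to 26 genes higher and 60 to 320 lower, and 54 to 256 lower over 200 kb, where fewer arrays remain. The long-gene score difference ranged from -0.871 (limit of 200 kb) to -0.291 (50 kb), was -0.41 without the dim filter, and ranged from -0.514 to -0.499 without 1 array. The replicate block, which leaves 1 irinotecan array unpaired, gave 0 probe sets or genes higher or lower and 0 over 200 kb in limma (5242 probe sets had an unadjusted p under 0.05), and for topotecan 4620 probe sets higher and 2758 lower, beside 6113 and 3562 without it (4899 and 4264 with quantile normalization). Reversed signs were Ube3a (-2.48 over both probe sets), Top2a (-0.01 with the block, -0.09 to 0.27 with 1 array left out) and Top2b (-0.08 to 0.01 with 1 array left out). Of 105 named genes and probe sets, 95 of them called, 27 to 33 lost the call without an irinotecan array and 66 to 68 without a vehicle array.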

Other observations

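Long non-coding RNA genes were more often called higher than lower. Of 501 long non-coding RNA genes that were not dim, 30 were higher (5.99%) and 12 lower (2.40%), with a median change of 0.14, beside 185 higher (1.5%) and 529 lower (4.29%) of 12329 protein-coding genes with a median of 0.07. Of 62 snoRNA genes 3 were higher and 2 lower, and the lower ones, DQ267101 (-0.73, SE 0.10) and DQ267102 (-0.67, SE 0.09), lie within Rian. Outside the Dlk1 to Dio3 region 9 of 140 microRNA genes that were not dim were called, beside 6.01% of all genes. Lower were Mir128-2 (-1.47), Mir9-2 (-1.01), Mir218-1 (-0.91), Mir551b (-0.75) and Mir670 (-0.67), and higher were Mir701 (0.84), Mir135b (0.72), Mir467e (0.72) and Mir1931 (0.69). They were picked with their values in view.

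Neuropeptide genes gave 3 lower and 0 higher of 15, all short: Npy, Vgf and Tac2, the precursor of neurokinin B (4.90, 4.88 and 4.88 in irinotecan arrays and 5.55 and 5.40 in vehicle arrays, -0.59, SE 0.10). Of all genes up to 100 kb 0.96% were lower. Without an irinotecan array 1 neuropeptide gene was lower, and without a vehicle array 0. Of the probe sets without a gene symbol 83 were higher and 152 lower of 16010. The deepest fall among them was in probe set 17491515, at 2.58, 2.33 and 3.30 with irinotecan and 7.24 and 7.14 with vehicle, a change of -4.45 (SE 0.29). The next was probe set 17491505, with a change of -4.28 (SE 0.17). By number both stand between Ube3a probe set 17491495 and the probe set of Ipw (17491529). Which RNA they read was not tested.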
